A study of Mus musculus with 6 samples.

Results

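The Hedgehog pathway genes described here are 9 genes chosen by symbol: Gli1, Gli2, Gli3, Ptch1, Smo, Hhip, Sufu, Boc and Gas1. They were 9 of the 17512 genes in the count table. All 9 passed the filter on low counts and were among the 14773 genes tested. Expression was measured by RNA-seq in pMEFs (primary fibroblasts of mouse embryos, the collagen-making cells of connective tissue) of strain background C57bl6. The comparison was between 3 HAT1 WT lines (36, 47 and 78) and 3 HAT1 KO lines (33, 41 and 72), each counted as 1 replicate. HAT1 is the acetyltransferase that acts on newly made histones. The design asked how its loss affects transcription. All lines were grown in the same serum-containing medium, with no added Hedgehog ligand or Smo agonist named. According to the study's methods, embryos were taken at mid-gestation and their internal organs were removed, so each line is a mixed culture of the remaining embryonic tissue. The KO embryos lacked both working copies of HAT1, and the deleted exons are not given in the sources used here. Nothing in the labels says whether lines of a genotype came from separate litters, so p-values measure only the spread between these lines.

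In the Hedgehog pathway, the secreted ligands Sonic, Indian and Desert hedgehog bind the receptor Ptch1, which otherwise holds the membrane protein Smo inactive. Active Smo gathers in the primary cilium and frees the Gli transcription factors from Sufu, so that Gli2 and Gli3 are not processed to repressors. Gli1, Ptch1 and Hhip are themselves transcribed in response, which is why they are widely read as markers of pathway activity. In the embryo the pathway patterns the limb, the neural tube and the face, and fibroblasts respond to added ligand.

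Library totals lay between 67720628 and 98786746 counts. Levels are given as CPM, each count divided by its library total after that total is scaled with edgeR's TMM factor. Hat1, the targeted gene, was at 20.2 ± 2.80 CPM in HAT1 WT and 10.2 ± 0.146 CPM in HAT1 KO (SD, n = 3 lines each). Its log2 fold change was -0.99 (SE 0.12, adjusted p = 0.0376, edgeR quasi-likelihood test), and 3 of 3 KO lines lay below every WT line. With any 1 of the 6 lines left out, its adjusted p lay between 0.0587 and 0.230 (edgeR). Of all genes tested, 78 passed an adjusted p of 0.05, which was 0.528%, and all 78 were lower in HAT1 KO. The summed level of 10 fibroblast markers was between 71176 and 76577 CPM in the WT lines and between 57739 and 89814 CPM in the KO lines. The summed level of 10 macrophage markers was between 2046 and 2182 CPM in WT and between 1118 and 1301 CPM in KO, and 8 of the 10 were lower at an adjusted p under 0.05. Y-linked genes were read at 13788 and 12841 counts in WT lines 36 and 47, at 231 in WT line 78, and at 4 to 8 in the KO lines. Their level was therefore high in 2 WT lines only, and so not balanced between the genotypes. Xist was read at 94 and 1179 counts in WT lines 36 and 47. It was at 29520 in WT line 78 and at 11233 to 13722 in the KO lines. The summed level of 12 proliferation markers was between 513 and 772 CPM in WT and between 797 and 1045 CPM in KO. Of the 12, 7 were higher at an unadjusted p under 0.05 (edgeR), against 5.88% of all genes tested, and 0 at an adjusted one. Summed endothelial markers reached at most 12.6 CPM in any line and epithelial markers at most 2.49 CPM, while the skeletal muscle, cartilage and neural lists overlapped between genotypes. The part that these differences in culture make-up, Y-linked level and lane had in the values below was not tested, other than by the alternatives named beside them. In bulk RNA, fewer cells of a type and less RNA per cell cannot be told apart.

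None of the 9 Hedgehog genes passed an adjusted p of 0.05 (edgeR quasi-likelihood test, Benjamini-Hochberg over 14773 genes). The count at an unadjusted p under 0.05 was 1 of 9, Smo, against 14.6% of all genes tested. The DESeq2 Wald test also called Smo alone at the adjusted threshold, and it gave Gli1 no adjusted p. Of the 13285 genes to which it gave one, it called 6.56%. For 2 of 9 genes, Smo and Hhip, the lines of the genotypes did not overlap in TMM-scaled CPM. Over all genes tested the share was 22% (9.59% higher and 12.4% lower in HAT1 KO). Under library-size and DESeq2 scaling the lines overlapped for Hhip. The log2 fold change was positive for 5 genes and negative for 4. Its median over the 9 was 0.05, beside 0.01 over all genes tested. Against that background these counts are no result about the 9 genes as a group.

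The lengths of the genes allow their levels to be ordered. On the scale of CPM per kilobase of merged exons, Gas1 was highest in HAT1 WT at 82.7 ± 8.41, followed by Smo at 27.0 ± 0.348, Boc at 13.4 ± 3.80 and Gli3 at 10.2 ± 0.493 (SD, n = 3 lines). Sufu at 5.86 ± 0.380 and Gli2 at 4.998 ± 0.753 CPM per kilobase overlapped between lines and were the only neighbours in the order that did. Ptch1 was at 1.48 ± 0.290, Hhip at 0.314 ± 0.0635 and Gli1 at 0.0336 ± 0.00957 CPM per kilobase. Among these 9 genes, Gas1, Smo and Boc were thus highest per kilobase, and Gli1 and Hhip lowest. The other pathway genes were not put on this scale. Ordered by their means, the HAT1 KO lines gave the same sequence of genes. In KO line 72 alone Gli3 stood above Boc, and Ptch1 above Gli2. Among all genes of the table, the WT level of Gas1 in CPM lay at the 96.3 percentile, that of Ptch1 at 61.2, that of Hhip at 36.1 and that of Gli1 at 17.8.

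**Figure D1:**
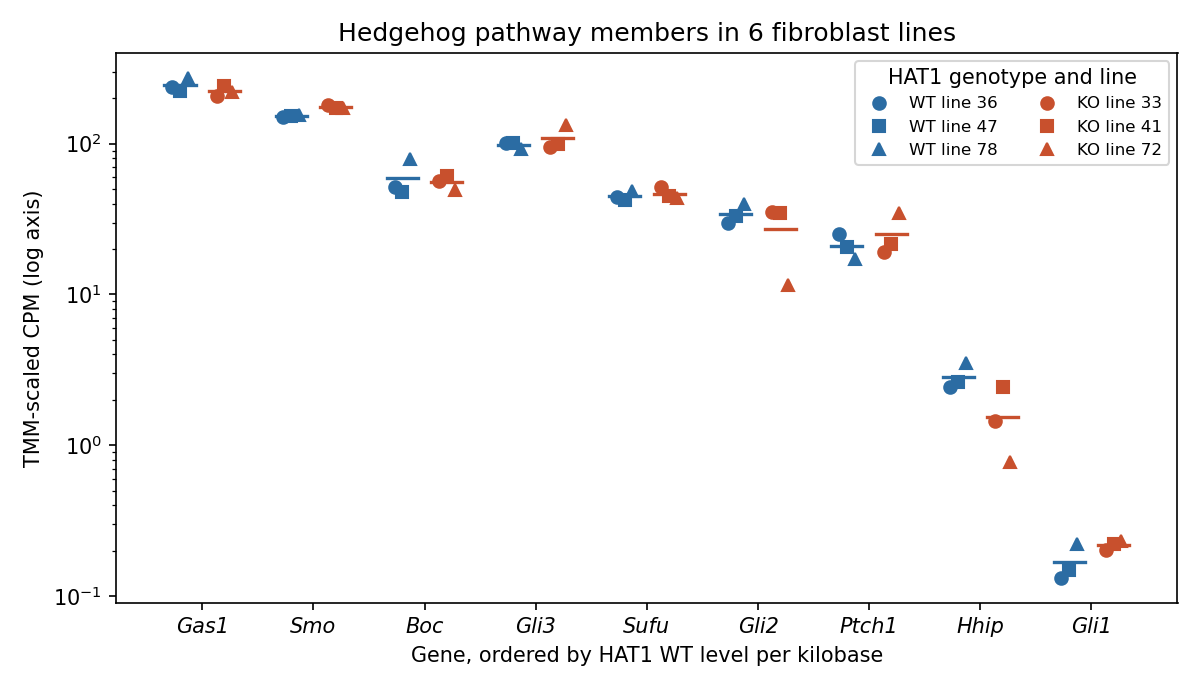
Level of each Hedgehog gene in TMM-scaled CPM (log axis) in 3 HAT1 WT and 3 HAT1 KO lines, with the genes ordered by their HAT1 WT level per kilobase. Points are single lines. The points of most genes lie close together, while Gli2 and Hhip in KO line 72 sit at 11.6 and 0.778 CPM, below all other lines.

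The promoters of 4 of the genes are shown because the data bear on them. Smo and Hhip are the genes whose genotypes did not overlap in TMM-scaled CPM, Hhip under that scaling only. Gli2 and Ptch1 are among those whose fold change took its sign from a single line, KO line 72. Sequences are RefSeq windows on GRCm38.p6, of 250 bases before to 50 after the start of the gene, 5′ to 3′ on the strand of the gene. RefSeq windows were found for 7 of the 9 genes, all but Gli1 and Boc. Each was searched on both strands for the Gli binding sequence GACCACCCA and for its core ACCACCC, which lies within it. The full sequence was in 0 of the 7 windows, and in 0.253% of 32851 mouse promoter windows. The core was in 1 of the 7, that of Gli2, and in 4.61% of the mouse windows. Capitals mark that core, read on the opposite strand, which begins 205 bases before the start site.
Gli2 (chr1:119053570-119053869, minus strand): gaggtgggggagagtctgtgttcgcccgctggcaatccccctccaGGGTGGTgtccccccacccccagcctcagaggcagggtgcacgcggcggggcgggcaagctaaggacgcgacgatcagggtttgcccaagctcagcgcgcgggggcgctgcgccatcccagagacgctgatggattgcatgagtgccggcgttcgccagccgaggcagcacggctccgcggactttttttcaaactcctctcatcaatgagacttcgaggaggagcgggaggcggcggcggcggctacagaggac
Ptch1 (chr13:63565686-63565985, minus strand): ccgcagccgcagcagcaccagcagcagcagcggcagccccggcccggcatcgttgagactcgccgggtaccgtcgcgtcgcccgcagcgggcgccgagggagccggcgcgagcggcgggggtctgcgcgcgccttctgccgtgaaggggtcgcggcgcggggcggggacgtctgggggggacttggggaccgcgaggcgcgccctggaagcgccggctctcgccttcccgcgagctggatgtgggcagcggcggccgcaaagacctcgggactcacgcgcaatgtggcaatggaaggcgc
Smo (chr6:29735247-29735546, plus strand): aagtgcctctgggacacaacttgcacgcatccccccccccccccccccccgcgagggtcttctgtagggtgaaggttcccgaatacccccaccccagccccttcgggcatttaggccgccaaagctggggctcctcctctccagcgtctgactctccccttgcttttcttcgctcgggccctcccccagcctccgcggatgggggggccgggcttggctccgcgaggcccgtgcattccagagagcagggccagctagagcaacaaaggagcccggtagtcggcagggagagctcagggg
Hhip (chr8:80057959-80058258, minus strand): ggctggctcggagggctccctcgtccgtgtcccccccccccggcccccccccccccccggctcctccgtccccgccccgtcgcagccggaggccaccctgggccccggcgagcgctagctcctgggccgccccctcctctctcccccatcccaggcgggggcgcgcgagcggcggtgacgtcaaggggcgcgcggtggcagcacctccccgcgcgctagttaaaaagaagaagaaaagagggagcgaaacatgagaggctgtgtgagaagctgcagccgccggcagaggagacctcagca
The RefSeq start of Ptch1 lies inside the gene as GENCODE M21 draws it, so other starts are not covered by this window. A match is a description of letters only, and a missing match says nothing of the factor.

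Smo codes for the membrane protein that passes the Hedgehog signal from Ptch1 to the Gli factors. The gene spans 29735503 to 29761365 of chromosome 6 (GRCm38, plus strand). It was at 150.1, 152 and 154 CPM in WT lines 36, 47 and 78 and at 180, 171 and 172 CPM in KO lines 33, 41 and 72. Every KO line was above every WT line, and this held under 3 scalings of the libraries. The KO mean was 174 ± 4.66 CPM against 152 ± 1.96 CPM in WT (SD, n = 3 each), a ratio of 1.15. Its log2 fold change was 0.20 (SE 0.06, 95% interval 0.06 to 0.33), with an unadjusted p of 0.0122 and an adjusted p of 0.212 in the edgeR quasi-likelihood fit. The difference therefore did not pass the adjusted threshold here, and it did in the DESeq2 Wald test (adjusted p = 0.0157). Within lane 6 Smo stood at 152 CPM in WT line 47 against 180 and 172 CPM in KO lines 33 and 72, and within lane 7 at 154 CPM in WT line 78 against 171 CPM in KO line 41. With lane in the edgeR model the unadjusted p was 0.095, and with the Y-linked class of the lines in the model it was 0.080.

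Hhip codes for a membrane protein that binds Hedgehog ligands and so dampens the signal, and it is a transcriptional target of the pathway. It lies on chromosome 8 between 79965851 and 80058006, on the minus strand. The WT lines 36, 47 and 78 gave 183, 211 and 347 counts, or 2.43, 2.62 and 3.51 CPM. The KO lines 33, 41 and 72 gave 129, 164 and 60 counts, or 1.45, 2.43 and 0.778 CPM. All 3 KO lines lay below the WT lines, but KO line 41 and WT line 36 were equal to 3 digits, and the genotypes overlapped under library-size and DESeq2 scaling. The KO mean was 1.55 ± 0.829 CPM against 2.85 ± 0.576 CPM in WT (SD, n = 3 each), a ratio of 0.544. This was a log2 fold change of -0.88 (SE 0.42, 95% interval -1.91 to 0.14), with an adjusted p of 0.408 (edgeR). Within lane 6 Hhip was at 2.62 CPM in WT line 47 against 1.45 and 0.778 CPM in KO lines 33 and 72. Without KO line 72 the log2 fold change was -0.55, and without KO line 41 it was -1.35 with an unadjusted p of 0.0139 (edgeR).

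Ptch1 codes for the receptor of the ligands. The gene lies on chromosome 13 between 63508328 and 63573598, on the minus strand. It was at 25.3, 20.7 and 17.1 CPM in WT lines 36, 47 and 78 and at 19.2, 21.5 and 34.9 CPM in KO lines 33, 41 and 72. The WT and KO lines overlapped, and KO line 72 was the highest of the 6. Its log2 fold change was 0.26 (SE 0.26, 95% interval -0.37 to 0.89, adjusted p = 0.691, edgeR). Without KO line 72 it was -0.036, so the sign rested on that line.

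Boc and Gas1 code for cell-surface coreceptors that help Ptch1 bind its ligands. Boc lies on chromosome 16 between 44485049 and 44558897, on the minus strand. It was at 51.6, 48.0 and 78.9 CPM in the WT lines and at 56.3, 61.1 and 49.5 CPM in the KO lines, in the same order of lines. WT line 78 stood above all other lines, and the other 5 lay between 48.0 and 61.1 CPM. Its log2 fold change was -0.10 (SE 0.20, 95% interval -0.59 to 0.39, adjusted p = 0.865, edgeR). It was 0.17 without WT line 78. Gas1 lies on chromosome 13 between 60174405 and 60177365, on the minus strand, and 19.9% of its exonic bases are shared with the lincRNA Gm48488 on the opposite strand. The WT lines held it at 238, 224 and 273 CPM, and the KO lines at 207, 239.5 and 219 CPM, with overlap. The log2 fold change was -0.14 (SE 0.10, 95% interval -0.38 to 0.10, adjusted p = 0.561, edgeR), and it was -0.051 without WT line 78. With the Y-linked class in the model, Boc and Gas1 had unadjusted p of 0.0123 and 0.0443 and log2 fold changes of -0.50 and -0.30, neither passing the adjusted threshold.

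Among the transcription factors, Gli2 is the main activator and Gli3 largely a repressor, and Sufu holds both in the cytoplasm. Gli2 lies on chromosome 1 between 118834132 and 119053619, on the minus strand. It was at 29.9, 33.1 and 40.0 CPM in WT lines 36, 47 and 78 and at 35.0, 34.8 and 11.6 CPM in KO lines 33, 41 and 72. KO lines 33 and 41 lay within the WT range, and KO line 72 lay below all other lines, at a log2 level 1.56 below the WT mean. Between genotypes the log2 fold change was -0.34 (SE 0.41, 95% interval -1.32 to 0.65, adjusted p = 0.747, edgeR). Without KO line 72 it was 0.035. Gli3 lies on chromosome 13 between 15463235 and 15730026, on the plus strand, and was at 101.5, 100.4 and 92.8 CPM in the WT lines and at 94.3, 99.3 and 133 CPM in the KO lines. KO line 72 was the highest of the 6, and the other 5 lay between 92.8 and 101.5 CPM. The log2 fold change was 0.15 (SE 0.14, adjusted p = 0.670, edgeR), and -0.0087 without KO line 72.

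Sufu, on chromosome 19 between 46396896 and 46488804 on the plus strand, was the gene with the log2 fold change nearest 0. It was at 44.4, 42.6 and 48.3 CPM in the WT lines and at 51.4, 44.8 and 43.6 CPM in the KO lines. The genotypes overlapped, with a log2 fold change of 0.05 (SE 0.09, 95% interval -0.17 to 0.26, adjusted p = 0.849, edgeR).

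Gli1 is the factor that the pathway induces most directly, and its transcript was at the edge of detection in every line. It lies on chromosome 10 between 127329882 and 127341974, on the minus strand. Reads of Gli1 numbered 10, 12 and 22 across WT lines 36, 47 and 78, against 18, 15 and 18 across KO lines 33, 41 and 72. Scaled levels were 0.133, 0.149 and 0.222 CPM in WT and 0.202, 0.222 and 0.233 CPM in KO, so the genotypes overlapped. Exact Poisson 95% intervals cover counting error only. They ran from 0.064 to 0.244 CPM in WT line 36 and from 0.138 to 0.369 CPM in KO line 72. Across all 6 lines the intervals overlapped. They treat each count as independent, while 75.1% of counts of 1 to 10 were even, so they may be too narrow. The log2 fold change was 0.37 (SE 0.36, 95% interval -0.50 to 1.24, adjusted p = 0.683, edgeR). It was -0.022 with the Y-linked class in the model, so its sign depended on that term. Gli1 shares 62 exonic bases with Arhgap9 and 265 with the antisense gene Gm47200, both on the opposite strand. The library kit does not mark strand, so reads from these overlaps cannot be told apart.

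**Figure D2:**
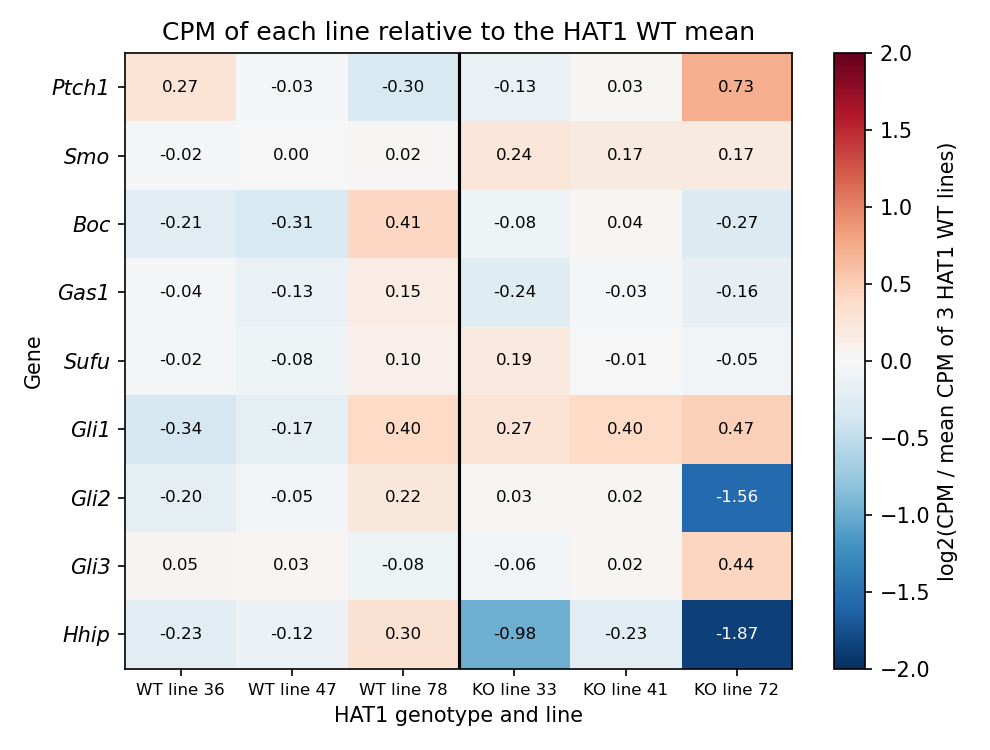
Level of each Hedgehog gene in each line relative to the mean of the 3 HAT1 WT lines, as log2(CPM / mean CPM), with colour giving the sign and size and the vertical line separating HAT1 WT from HAT1 KO. KO line 72 is the column that departs most, with Gli2 at -1.56, Hhip at -1.87, Ptch1 at 0.73 and Gli3 at 0.44.

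The spread between lines differed from gene to gene. The coefficient of variation (SD over mean) in HAT1 KO was 49.5% for Gli2, 53.5% for Hhip, 33.6% for Ptch1 and 19.2% for Gli3, against a median of 13.0% over all genes tested. In HAT1 WT it was 15.1%, 20.2%, 19.6% and 4.82% for the same genes, against a median of 9.43%. Boc and Gas1 varied less in KO than in WT, at 10.5% and 7.42% against 28.4% and 10.2%. The WT value of Boc rested on line 78, at 78.9 CPM against 51.6 and 48.0 CPM. Gli1 was at 28.4% in WT and 7.21% in KO. With 10 to 22 counts per line, its spread between lines cannot be told apart from counting error. Sufu was at 6.47% in WT and 9.02% in KO. Smo varied least, by 1.29% in WT and 2.68% in KO. KO line 72 held the highest value of the 6 lines for 3 genes and the lowest for 2, that is 5 of 9, and 51.5% of all genes tested had their highest or lowest value in that line. WT line 78 held 6 of 9, against 40.4% of all genes tested.

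Within each library the genes can be compared with one another without any scaling. The ratio of Gli3 to Gli2 counts was 3.39, 3.03 and 2.32 in WT lines 36, 47 and 78, 2.69 and 2.85 in KO lines 33 and 41, and 11.4 in KO line 72. Hhip to Ptch1 counts stood at 0.0959, 0.127 and 0.205 in the WT lines and at 0.0754, 0.113 and 0.0223 in the KO lines. The ratio of Ptch1 to Smo counts was 0.169, 0.136 and 0.111 in WT and 0.107, 0.125 and 0.203 in KO. KO line 72 was the extreme of the 6 lines for these 3 ratios, and the other lines of the genotypes overlapped. For Gli1 to Ptch1 it stood at 0.00669, between WT line 36 at 0.00524 and WT line 78 at 0.0130, and for Boc to Gas1 at 0.226, within the WT lines at 0.214 to 0.290.

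**Figure D3:**
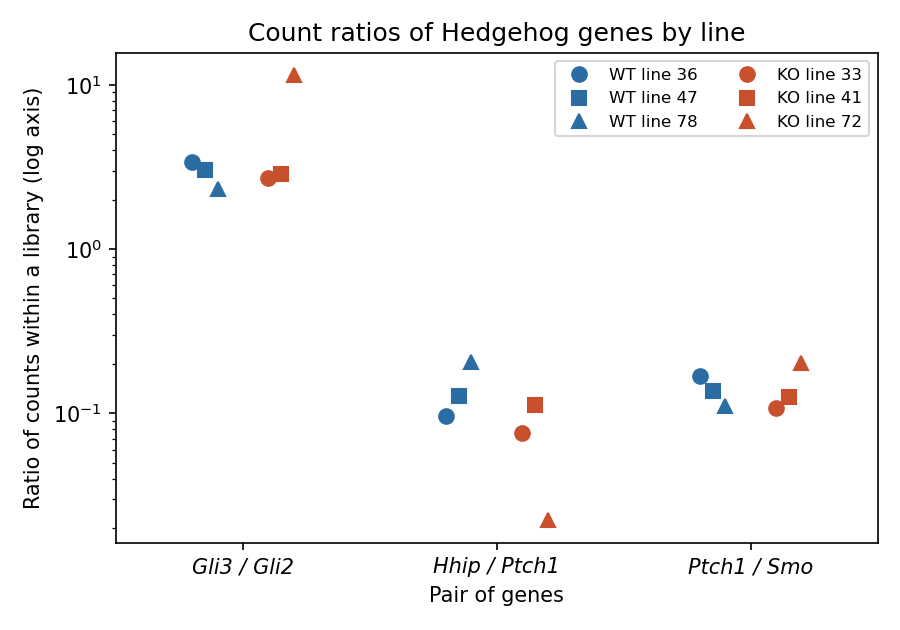
Ratio of raw counts between pairs of Hedgehog genes within each library (log axis), for 3 HAT1 WT and 3 HAT1 KO lines. The other 5 lines group together for Gli3 over Gli2, between 2.32 and 3.39, and KO line 72 stands apart at 11.4.

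Likeness of pattern was measured as the root mean square (RMS) difference of centred log2 CPM over the 6 lines. The 5 genes most like Gli1 were Pcdhb18 (0.085), Aarsd1 (0.087), Hecw2 (0.089), Kdm6a (0.090) and St3gal6 (0.099). Each is a likeness over 6 lines, chosen from 14772 genes, to a pattern of 10 to 22 counts whose intervals overlapped, so that pattern cannot be told apart from counting error. Of the other members, Smo ranked 611 for likeness to Gli1 and Hhip ranked 13420. Gli2 and Hhip were alike over all 6 lines, with an RMS difference of 0.351 and rank 359 for Hhip among the genes most like Gli2. Without KO line 72 their rank was 11377, an alternative chosen after seeing the data, so the likeness rested on that line.

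The other genes of the pathway were taken from 4 lists of 67 genes in all, of which 65 were tested. None passed the adjusted threshold, against 0.528% of all genes tested. At an unadjusted p under 0.05 there were 8 of 65, 2 higher and 6 lower in HAT1 KO, against 5.88% higher and 8.77% lower over all genes tested. The median log2 fold change was 0.02. Among 10 ligand and ligand-release genes, none passed the unadjusted threshold. Dhh, a ligand, was at 0.239, 0.161 and 0.111 CPM in WT and at 0.651, 0.0592 and 0.0778 CPM in KO, so KO line 33 alone was high. Hhat, which acylates the ligands, had a log2 fold change of 0.19 (unadjusted p = 0.312, edgeR), which was 0.068 without KO line 72, 0.084 without WT line 78 and 0.32 without WT line 36. Scube1, which helps release them, had one of 0.60 (unadjusted p = 0.222, edgeR), which was 0.079 without KO line 72, 0.40 without WT line 47 and 0.92 without KO line 33 (unadjusted p = 0.0445). Shh and Ihh were not among the genes of the count table, so they were not tested.

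Of 10 other receptors and membrane regulators, Evc was the only one past the unadjusted threshold, against 14.6% of all genes tested. Evc, a ciliary protein that acts beside Smo, was at 36.5 ± 0.887 CPM in WT and 42.1 ± 1.66 CPM in KO (SD, n = 3), a log2 fold change of 0.21 (SE 0.06, adjusted p = 0.228, edgeR), with 3 of 3 KO lines above every WT line. Cdon, a coreceptor related to Boc, was at 128, 119 and 233 CPM in WT and 173, 176 and 129 CPM in KO. Like Boc, it was highest in WT line 78. Gpr161, a ciliary receptor that restrains the pathway, had a log2 fold change of 0.13 (adjusted p = 0.572, edgeR), which was 0.063 without KO line 41.

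Of 24 cilium and cytoplasmic regulators of Gli, 5 were lower and none higher at the unadjusted threshold. Over all genes tested, 8.77% were lower and 5.88% higher, and no test of the list was run. Arrb2, an arrestin that moves Smo into the cilium, was at 53.7, 56.6 and 54.3 CPM in WT lines 36, 47 and 78 and at 40.7, 34.1 and 32.95 CPM in KO lines 33, 41 and 72. Each KO line was below each WT line, with a log2 fold change of -0.61 (SE 0.09, unadjusted p = 0.000529, adjusted p = 0.0642, edgeR). The DESeq2 Wald test and voom with sample quality weights both called it, with adjusted p of 3.4e-05 and 0.0313. Kif3a, a motor of ciliary transport, was at 26.4 ± 2.31 CPM in WT and 20.6 ± 1.77 CPM in KO (SD, n = 3), a log2 fold change of -0.36 (unadjusted p = 0.0124, edgeR). Grk2, which phosphorylates Smo, Prkacb, a protein kinase A subunit that marks Gli for processing, and Numb, an adaptor, had log2 fold changes of -0.17, -0.18 and -0.19. Kif7, the motor that organises Gli at the tip of the cilium, was at -0.11 (adjusted p = 0.792, edgeR). The macrophage markers were lower in the same 3 KO lines, at 1118 to 1301 CPM against 2046 to 2182 CPM in WT, and their part in the Arrb2 value was not tested.

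Of 22 reported target genes, 1 was higher and 1 lower at the unadjusted threshold, against 5.88% higher and 8.77% lower over all genes tested. Osr1, a transcription factor of mesenchyme, was at 26.3, 21.2 and 24.1 CPM in WT and at 30.4, 35.9 and 36.1 CPM in KO, with no overlap. Its log2 fold change was 0.52 (SE 0.11, unadjusted p = 0.00348, adjusted p = 0.133, edgeR). Pthlh, a secreted growth regulator, was read at only 10, 16 and 24 counts in WT and 6, 2 and 6 in KO, a log2 fold change of -1.68 (adjusted p = 0.226, edgeR).

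**Figure D4:**
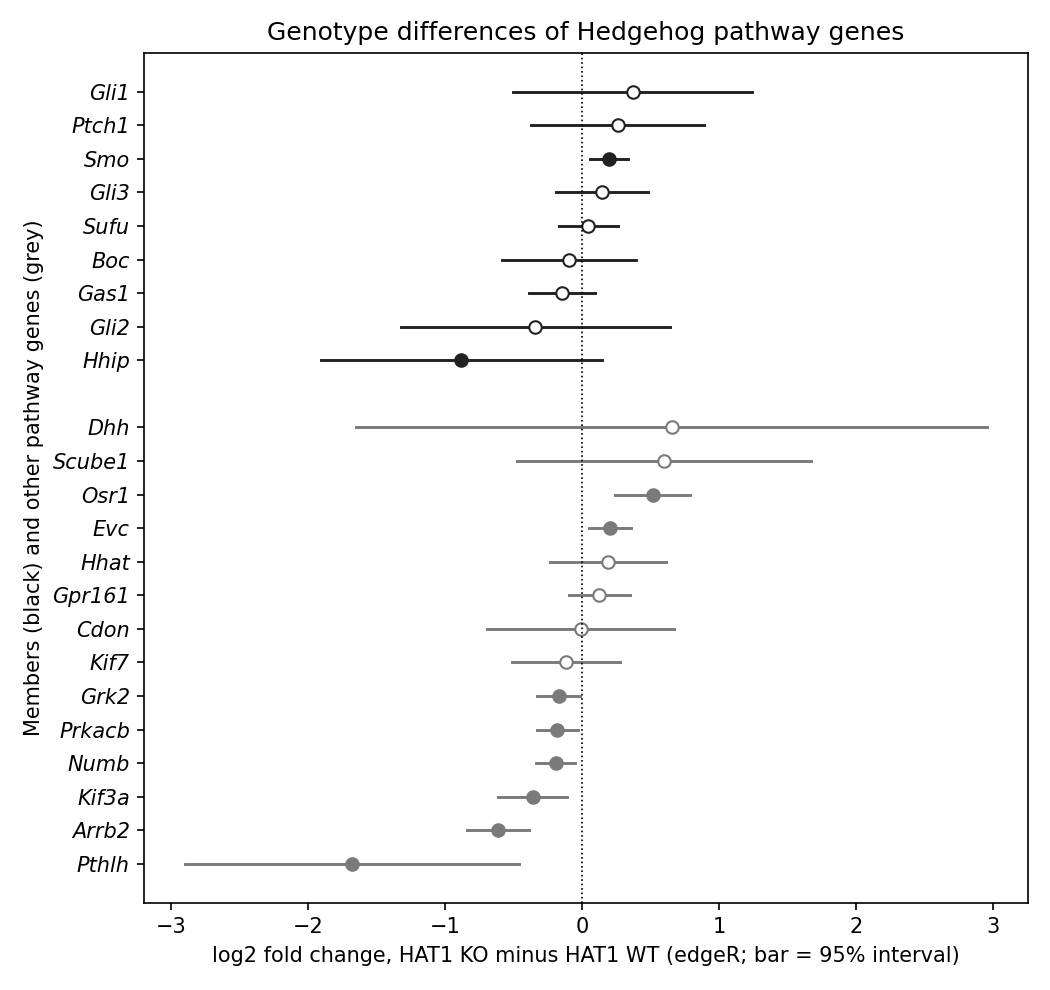
Log2 fold change, HAT1 KO minus HAT1 WT, with its 95% interval from the edgeR fit, for the 9 Hedgehog genes (black) and other named pathway genes (grey). Filled points are genes whose lines did not overlap between genotypes in TMM-scaled CPM. The interval of Smo, from 0.06 to 0.33, lies above 0, and those of the other 8 black points include 0.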

How the data were processed

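The authors deposited 1 table of raw read counts per gene for 6 RNA-seq libraries of pMEFs, made with an unstranded kit. The submitters' notes name edgeR and the mm10 build; the aligner, counter, annotation and strand setting are not given in the sources used here. The table also holds the authors' own comparison, a log2 fold change, a log2 mean CPM, an F score, a p-value and a q-value, which were deposited by the authors and not used. Samples were grouped by the genotype in their labels, and lanes were read from the labels. All 6 count columns were matched to a sample and 0 were left over. In 24 genes a symbol turned into a date was restored from the identifier.

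Counts were tested in R 4.3.3 with edgeR 4.0.16 (filterByExpr defaults, TMM, quasi-likelihood test, genotype alone, two-sided), with p-values adjusted over 14773 genes by Benjamini-Hochberg at 0.05. Standard errors are approximate, taken as the size of the log2 fold change over the root of its F. The code was tested on simulated data. Positions are from GENCODE M21 on GRCm38. Alternatives used DESeq2 1.42.0, voom in limma 3.58.1, other scalings and filters, lane, Y-linked class, and each line left out. Named genes were the 9 members, fixed pathway genes, list genes with an unadjusted p under 0.05 (or the 2 lowest), Hat1 and the 5 genes most like Gli1. A gene among these is not reported here. Members and lists were chosen with earlier results of these data known. Among counts of 1 to 10, 75.1% were even, against 55% of counts of 101 to 1000, which bears on Gli1.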

Additional observations from a re-analysis of the deposited data

How the results depend on the processing

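No paired analysis was possible because the genotypes share no line numbers. The count of all genes at an adjusted p under 0.05 was 78 and became 871 with the DESeq2 Wald test, 267 with voom, 46 with no filter, 2 with lane in the model and 0 with the Y-linked class in it, and ranged from 0 to 73 with a line left out. Of the Hedgehog genes, the DESeq2 Wald test called 1 (Smo, 0.20). At an unadjusted p under 0.05 the count was 0 with lane, 2 with the Y-linked class (Boc and Gas1) and 1 to 2 with a line left out. Of all 14773 genes, 726 were lower and 205 higher at that threshold with lane, and 1039 and 803 with the Y-linked class. With a line left out, 916 to 1424 were lower and 454 to 1362 higher, of 14992 to 15059 genes. Of the 65 other pathway genes, the DESeq2 Wald test called 2 (Arrb2 at -0.60 and Osr1 at 0.52), against 6.56% of all genes with an adjusted p. Dhh and Pthlh were among the genes to which it gave none. Voom called 1 (Arrb2, -0.60), against 267 of all 14773 genes. At the unadjusted threshold there were 3 of these pathway genes with lane and 5 to 11 with a line left out. Smo lay between 0.18 and 0.22 under every alternative.

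The sign reversed for Boc with voom (0.12), for Gli1 (-0.022) and Sufu (-0.052) with the Y-linked class, for Dhh with voom (-0.082), and for Cdon with DESeq2 size factors (0.0021), the DESeq2 Wald test (0.0022), voom (0.32), no filter (0.011) and lane (0.016). With a line left out, ranges crossing 0 were -0.22 to 0.17 for Boc, -0.028 to 0.11 for Sufu, -0.56 to 0.035 for Gli2, -0.0087 to 0.24 for Gli3, -0.036 to 0.42 for Ptch1, -1.28 to 1.12 for Dhh, -0.18 to 0.38 for Cdon and -0.26 to 0.032 for Kif7. Sufu turned without KO line 33, Boc and Cdon (0.38) without WT line 78, Dhh without KO line 33, and Gli2, Gli3, Ptch1, Cdon (0.13) and Kif7 without KO line 72; the cause was not tested. Hat1 missed the adjusted threshold in 8 of 14 alternatives: with lane (-1.10), with the Y-linked class (-0.98) and with each of the 6 lines left out (-1.08 to -0.87, adjusted p 0.0587 to 0.230). Per longest transcript, Smo was at 40.2, Gli3 at 12.0, Sufu at 9.97 and Ptch1 at 2.03 CPM per kilobase in HAT1 WT. The order of the means was the same, with Gli3 close below Boc at 13.4. Overlap between single lines was not compared on this scale. Few counts limit Gli1, Dhh and Pthlh.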

Other observations

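The 5 pathway genes described here lie outside the 9, were chosen after their values were seen, and stood apart in KO line 72. That line held the highest or lowest value for 51.5% of all genes tested, so these are no result about the pathway. Bmp4, a secreted signal, was at 68.3 CPM there and between 3.25 and 11.9 CPM in the other lines. Foxl1, a transcription factor, was at 2.84 CPM against 0.258 to 0.472 CPM, and Ccnd1, a cyclin, at 419 CPM against 183 to 239 CPM. Sfrp1, a secreted Wnt antagonist, was at 25.0 CPM against 170 to 577 CPM, and Gpc3, a glypican, at 5.37 CPM against 31.3 to 49.1 CPM. None passed an adjusted p of 0.05 between genotypes (edgeR).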
